A study of Mus musculus with 2 samples.

Results

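The genes described here are 7 members of the PARP family, Parp1, Parp8, Parp9, Parp10, Parp11, Parp12 and Parp14, together with Dtx3l, a Deltex-type ubiquitin ligase that pairs with Parp9. They were chosen by gene symbol, and all 8 symbols were found once each among the 55536 annotated genes of the gene tables. They were measured in macrophages grown from mouse bone marrow, as primary cells of strain C57BL/6J. The cells met lipid A, the membrane anchor of bacterial lipopolysaccharide and the ligand of TLR4, in 2 rounds. The first round lasted 12 h at 100 ng/ml and was followed by a washout of 12 h, and the second lasted 75 min at the same 100 ng/ml. Cytosolic RNA was sequenced as total RNA after removal of ribosomal RNA, with 1 µg of RNA per library and a size range of 250 to 400. The series holds 1 group of 2 biological replicates, with no sex or age recorded. Each replicate has its own biosample record in the labels but they share a donor code, and nothing says whether they came from different mice. A difference between them is thus a difference between these 2 libraries, which may be technical. The p-values below hold counting error only, or an assumed variation, and do not measure a spread between mice. No unstimulated or singly stimulated library was analysed here, so the levels below describe the stimulated state and do not measure induction by lipid A or by interferon.

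PARP enzymes transfer ADP-ribose from NAD to proteins. Parp1 builds long chains of it at DNA breaks, whereas most of the other members add single units, and Parp9 and Parp14 also carry macrodomains, which bind ADP-ribose. Signalling through TLR4 leads macrophages to make type I interferon, and Parp9, Dtx3l, Parp10, Parp11, Parp12 and Parp14 are known as genes that interferon induces in many cell types. Parp9 and Dtx3l form a complex that ubiquitinates and ADP-ribosylates its targets, and Parp14 is known in macrophages and lymphocytes as a regulator of cytokine responses.

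The Parp11 gene is annotated with transcripts from more than 1 start, and the sequences just upstream of a pair of these starts are shown because they differ in interferon-type motifs. They come from RefSeq (GRCm38.p6, the genome of the mm10 assembly), each holds 250 bases and ends at the base before the start, and both are on the + strand. The upstream start window is chr6:127446590-127446839 and the downstream start window is chr6:127453377-127453626, with 6787 bases between the starts. Capitals mark overlapping matches to an interferon-stimulated response element core (ISRE core, GAAANNGAAA, searched on both strands) and to a gamma-activated site (GAS, TTCNNNGAA, which reads the same way on both strands).
Parp11 upstream start: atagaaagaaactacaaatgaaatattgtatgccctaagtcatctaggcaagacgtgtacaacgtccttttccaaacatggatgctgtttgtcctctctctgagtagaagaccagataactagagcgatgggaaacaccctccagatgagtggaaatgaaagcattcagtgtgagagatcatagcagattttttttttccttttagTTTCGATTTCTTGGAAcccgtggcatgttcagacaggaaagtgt
Parp11 downstream start: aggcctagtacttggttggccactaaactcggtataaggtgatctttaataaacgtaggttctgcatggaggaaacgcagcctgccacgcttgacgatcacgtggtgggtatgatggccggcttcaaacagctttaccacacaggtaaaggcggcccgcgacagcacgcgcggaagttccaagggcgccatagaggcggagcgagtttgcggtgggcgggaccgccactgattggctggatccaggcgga
The upstream window held TTTCGATTTC, an ISRE core on the minus strand, at bases -44 to -35 from the start, and TTCTTGGAA, a GAS match, at bases -37 to -29, so the 2 matches share bases. The downstream window held neither. Of all 32851 windows of 300 bases in the RefSeq table, 3.44% held an ISRE core and 8.30% a GAS match. Windows were matched for 5 of the 8 genes, namely Dtx3l, Parp1, Parp8, Parp12 and Parp11, and Parp11 contributed both of its windows. Of these 6 windows, the upstream window of Parp11 was the 1 with an ISRE core and the 1 with a GAS match. The Dtx3l window was set on a RefSeq start at 35939027, whereas its GENCODE transcripts start at 35939151 on the minus strand. Part of its upstream stretch thus lies within the first exon of Dtx3l, so fewer bases beyond the GENCODE start were searched. In comparison, 10 of 15 interferon-stimulated genes and 1 of 8 other PARP family genes in the table had an ISRE core, and 3 of 15 and 1 of 8 had a GAS match. GC content also differed, at 40.4% in the upstream window of Parp11, 57.6% in its downstream window, 52.8% for Dtx3l, 61.6% for Parp1, 73.6% for Parp12 and 74.8% for Parp8. A match is a string of letters and was not tested as a binding site.

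All 8 genes were detected, defined as reaching a TPM of 1 in both libraries, against 16.7% of annotated genes. The annotated genes include noncoding genes and pseudogenes, and the share among protein-coding genes alone was not computed. TPM corrects a gene's share of a library for its length. In both libraries 7 of the 8 reached a TPM of 10, against 38.2% of detected genes. The median of the 8 genes was a TPM of 32.3 and 32.7 in replicates 1 and 2, against 7.82 and 7.17 over the 9302 detected genes. The libraries held 64187219 and 49429864 rounded expected counts on annotated genes, of which the 8 genes took 0.267% and 0.307%. Counts per gene ranged from 2196 for Parp8 in replicate 2 to 85343 for Parp14 in replicate 1. In bulk RNA, fewer cells that express a gene and less RNA per cell cannot be told apart. The macrophage label held against its markers, with 10 of 10 markers detected and a summed TPM of 5231 and 5762. Of other lineages, 1 of 6 T and NK cell markers was detected, which was Cd4 at a TPM of 16.7 and 14.1, and Klrb1c and Ncr1 had no count. None of 4 B cell and none of 5 dendritic cell markers was detected, with summed TPM of 0 and 0.13 for B cells and of 0.23 and 0.42 for dendritic cells. Neutrophil markers (2 of 6) summed to a TPM of 5.48 and 11.8, with Ly6g at no count, and stromal and endothelial markers (2 of 6) to 6.06 and 4.93. The part of these cells in the levels of the 8 genes was not tested.

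Parp14, which carries macrodomains and adds single ADP-ribose units, was the most abundant of the 8 in both libraries. Its TPM was 107 in replicate 1 and 123 in replicate 2, a mean of 115 ± 11.5 (SD, n = 2). It stood above 95.0% and 96.2% of detected genes and was the 1 gene of the 8 to reach a TPM of 100 in both libraries. As a long transcript it also took most counts, 85343 and 80240, which is 49.8% and 52.8% of the counts on the 8 genes but 32.2% and 35.0% of their TPM.

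Dtx3l, the ubiquitin ligase, had a TPM of 64.5 and 63.6, a mean of 64.1 ± 0.643 (SD, n = 2). Its partner Parp9, whose own catalytic activity is weak or absent, had a TPM of 52.2 and 52.7, a mean of 52.4 ± 0.389 (SD, n = 2). The ratio of Dtx3l to Parp9 TPM was 1.24 and 1.21, and in the read-based transcript table it was 1.21 and 1.19, so Dtx3l was the higher of the pair by about the same ratio in both libraries and both tables. When only transcripts annotated as protein coding were summed, the ratio was 1.55 and 1.50. Parp14, Dtx3l and Parp9 together made up 67.6% and 68.2% of the TPM of the 8 genes.

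Parp12, a zinc-finger PARP that restricts RNA viruses in cell culture, had a TPM of 39.3 and 42.4 (mean 40.8 ± 2.13, SD, n = 2). Parp11, whose WWE domain binds ADP-ribose, had a TPM of 25.3 and 22.1 (mean 23.7 ± 2.27, SD, n = 2). Parp10, which carries RNA recognition and ubiquitin-interaction motifs, had a TPM of 19.6 and 23.0 (mean 21.3 ± 2.45, SD, n = 2). Parp11 was thus the higher of these last 2 in replicate 1 and Parp10 in replicate 2, and their order cannot be read from gene TPM.

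Parp1, the main enzyme of the DNA break response and not a classical interferon target, had a TPM of 13.5 and 15.3 (mean 14.4 ± 1.30, SD, n = 2). Parp8, one of the least studied family members, was the lowest in both libraries, at a TPM of 9.50 and 8.63 (mean 9.07 ± 0.615, SD, n = 2). Parp8 still stood above 56.1% and 55.8% of detected genes, and Parp1 above 65.8% and 71.9%. From Parp14 down to Parp8 the 8 genes spanned a fold of 11.2 in replicate 1 and 14.2 in replicate 2.

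**Figure D1:**
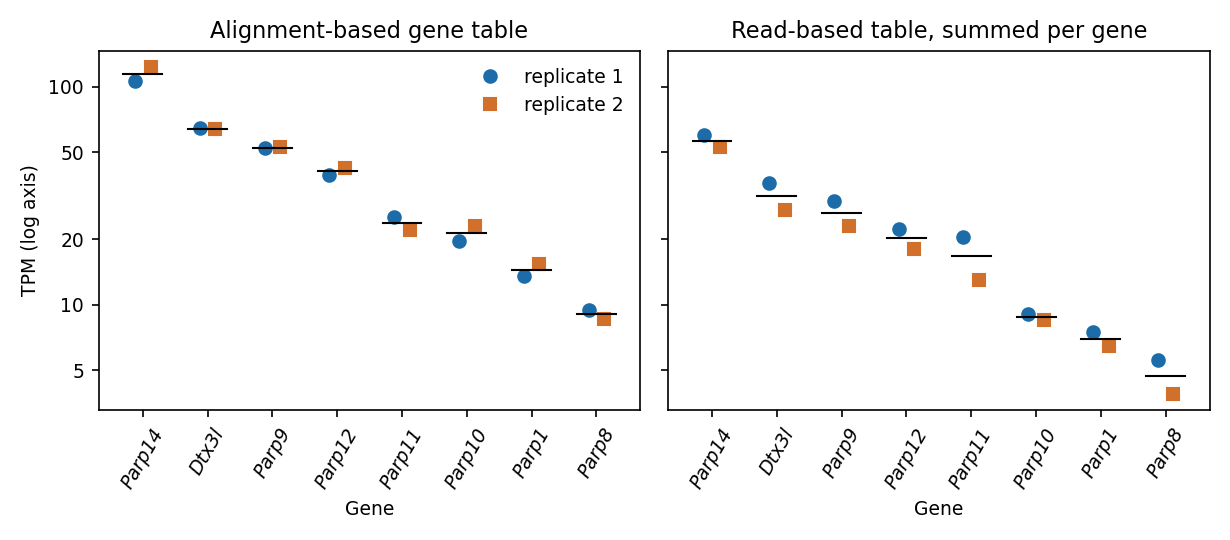
TPM of each gene (log axis) in replicate 1 (circles) and replicate 2 (squares), with the mean as a line, from the alignment-based gene table on the left and summed over transcripts of the read-based table on the right. Parp14 is highest and Parp8 lowest in every library and table, and Parp11 and Parp10 change places only between the libraries of the alignment-based table.

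The order by mean TPM was Parp14, Dtx3l, Parp9, Parp12, Parp11, Parp10, Parp1 and Parp8. For 6 of the 7 neighbouring pairs the gap exceeded the larger of the 2 genes' own differences between replicates in both libraries, and it kept its sign in the read-based table. The smallest such gap was between Dtx3l and Parp9, and the largest between Parp14 and Dtx3l in replicate 2, at 1.93-fold. Parp9 stood above Parp12 by 1.33-fold and 1.24-fold. With only protein-coding transcripts summed this gap was smaller, with Parp9 at a TPM of 41.5 and 42.3 and Parp12 at 39.2 and 41.9. Parp12 stood above Parp11 by 1.55-fold and 1.92-fold by gene TPM but by 1.09-fold and 1.40-fold in the read-based table. The read-based level of Parp11 includes the transcript Parp11-204, at a TPM of 4.93 and 2.81, which was at 0 by alignment. The part of this transcript in the gaps of Parp11 to Parp12 and to Parp10 was not tested. The pair of Parp11 and Parp10 was the exception, with a ratio of 1.29 and 0.960 by gene TPM and of 2.25 and 1.53 in the read-based table. Parp10 stood above Parp1 by 1.45-fold and 1.50-fold by gene TPM. When only protein-coding transcripts were summed, that last order reversed in replicate 1 but held in replicate 2. Parp10 then had a TPM of 12.3 and 16.1 and Parp1 of 13.4 and 15.4. Read-based TPM was lower for all 8 genes, at 60.1 and 53.0 for Parp14 and 5.57 and 3.90 for Parp8, and was lower in replicate 2 for each of them.

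Parp14, Dtx3l and Parp9 lie together on chromosome 16 (mm10), within 139732 bases. Parp14 (chr16:35832874-35871544) and Dtx3l (chr16:35926511-35939151) are on the minus strand, and Parp9 (chr16:35938470-35972605) is on the plus strand. Between Parp14 and Dtx3l lie 54966 bases, which hold 2 processed pseudogenes, Gm41467 and Gm10237, both at a TPM of 0 in both libraries, and 0 protein-coding genes. Dtx3l and Parp9 face each other head to head and overlap, so that 458 exonic bases belong to both genes, 8.0% of the exonic bases of Dtx3l and 9.40% of those of Parp9. These are the first exon of Dtx3l, which covers all 50 bases of the first exon of the transcript Parp9-201 and 367 of the 591 bases of that of Parp9-203. Whether counting used strand is not given in the sources used here, so reads within these bases cannot be told apart between the genes. The other genes lie apart: Parp12 at chr6:39086410-39118349 (minus), Parp11 at chr6:127446840-127494261 (plus), Parp10 at chr15:76231174-76243441 (minus), Parp1 at chr1:180568924-180601254 (plus) and Parp8 at chr13:116854820-117025537 (minus).

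Among other neighbours, Plec, which encodes the cytoskeletal linker plectin, shares 205 exonic bases (4.80% of those of Parp10) with Parp10 on the same strand. Plec had a TPM of 14.2 and 20.3. The antisense gene Gm15564 within the span of Parp9 was at a TPM of 0 in both libraries, Gm49730 within Parp14 at 0.34 and 0.86, and Gm43633 within Parp11 at 0.01 and 0.04. Near Parp12, on the other strand, the antisense gene 4930599N23Rik was at a TPM of 0.89 and 0.88 and the thromboxane synthase gene Tbxas1 at 16.4 and 18.7. Apart from the shared bases of Dtx3l with Parp9 and of Parp10 with Plec, the neighbours with shared exonic bases were at a TPM under 1.

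The 8 genes have 45 annotated transcripts, 17 of them protein coding, and 15 made up at least 10% of their gene's TPM in a table. Each gene was led by a protein-coding transcript, 8 of 8 against 94.9% of detected protein-coding genes with more than 1 transcript. The leading transcript was the same in the alignment-based and the read-based table for 7 of 8, against 89.4% of genes, and Parp11 was the exception. The leading transcript carried the APPRIS principal tag, which marks the main protein form, for 7 of 8 in the alignment-based table, against 79.9% of genes, and for 6 of 8 in the read-based table, against 77.9%. These shares lie near their backgrounds. Parp9 was the gene not led by a principal form in either table, and Parp11 was not in the read-based table.

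A single form held nearly all of Parp14, Dtx3l, Parp12 and Parp1. Parp14-201, with 17 exons and 5451 coding bases, held 98.6% and 97.5% of Parp14 TPM. Dtx3l-201, with 5 exons and 2244 coding bases, held 99.3% and 99.2%. Parp12-201 held 99.7% and 98.9%. For Parp1-201, with 23 exons and 3042 coding bases, the share was 94.4% and 95.9%. The read-based table put these 4 transcripts at 95.7% or more of their genes in each library.

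**Figure D2:**
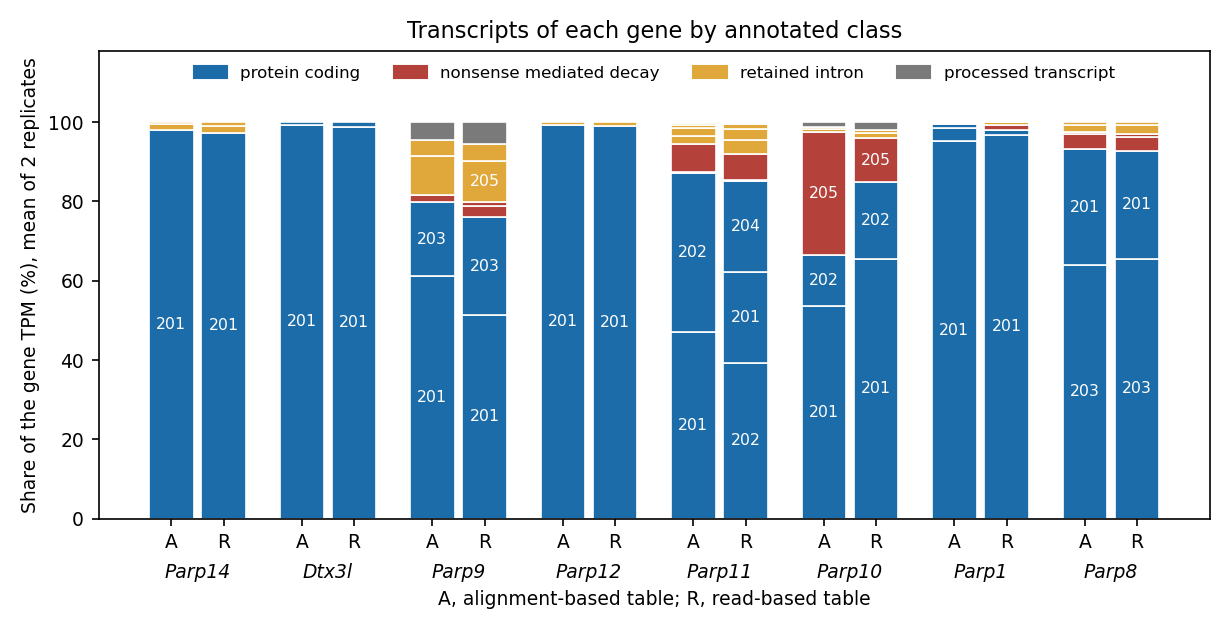
Share of gene TPM (%) held by each transcript, as the mean of the 2 replicates, in the alignment-based (A) and read-based (R) table, coloured by annotated class and with transcript numbers inside the larger blocks. Parp14, Dtx3l, Parp12 and Parp1 are single blocks, while Parp9, Parp11, Parp10 and Parp8 are divided, and the tables differ most for Parp11-201, followed by Parp11-204 and Parp10-205.

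Parp8 was divided between a pair of protein-coding forms in both tables. Parp8-203 (26 exons, 2556 coding bases) held 63.0% and 65.1%, and Parp8-201 (27 exons, 2673 coding bases) held 30.1% and 28.1%. The read-based table gave 64.3% and 66.9% for Parp8-203 and 29.3% and 25.1% for Parp8-201, so the tables differed by less than 5 percentage points in each library.

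Parp9 was led by a shorter coding form. Parp9-201, with 1791 coding bases, held 59.8% and 62.4% of Parp9 TPM by alignment and 49.5% and 53.1% by reads. The principal form Parp9-203, with 2490 coding bases, held 19.7% and 17.8% by alignment and 26.3% and 23.4% by reads. The annotated coding sequence of Parp9-201 is the end of that of Parp9-203 and lacks its first 699 bases, or 233 codons. Parp9-203 has an exon of 34 bases (chr16:35943369-35943402, plus strand) that Parp9-201 lacks. The first 64 coding bases of Parp9-203, from the GENCODE M21 transcript, are shown with that exon in capitals because it separates the annotated forms.
Parp9-203 coding start: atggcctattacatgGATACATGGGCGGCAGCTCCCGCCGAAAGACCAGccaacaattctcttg
By start site, the 4 transcripts that begin between 35939011 and 35939061 held 76.7% ± 1.96 of Parp9 TPM by alignment and 68.6% ± 2.12 by reads (SD, n = 2 libraries). The upstream start at 35938470, used by Parp9-203 alone, held 18.7% ± 1.38 and 24.8% ± 2.06. The downstream starts were the larger in both libraries and both tables. Of the first exon of Parp9-203, 367 of 591 bases lie within the first exon of Dtx3l, as do all 50 of Parp9-201. The strand setting is not given, and the part of Dtx3l reads in these shares was not tested. Parp9-205, a transcript with a retained intron, held 9.94% and 9.66% by alignment and 10.3% and 9.97% by reads.

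Parp11 was divided between starts, and this division depended on the table. Parp11-201, the principal form with 9 exons and 993 coding bases, begins at the downstream starts and held 45.6% and 48.8% by alignment but 22.0% and 24.1% by reads. Parp11-202, with 6 exons and 744 coding bases, begins at the upstream start, whose preceding window held the ISRE core, and held 42.1% and 38.0% by alignment and 39.1% and 39.3% by reads. The upstream start thus held about the same share in all 4 measurements, 40.0% ± 2.89 by alignment and 39.2% ± 0.158 by reads (SD, n = 2 libraries). The 5 transcripts from the downstream starts held 57.1% ± 3.22 by alignment and 34.7% ± 1.86 by reads. Besides Parp11-201, the tables differed in Parp11-204, a form of 733 bases with a start between the others. It held 0% in both libraries by alignment and 24.1% and 21.7% by reads, a read-based TPM of 4.93 and 2.81. In read-based counts, which are not corrected for length, Parp11-204 took 523 of 9518 and 334 of 6874. The read-based level of Parp11 thus depends on the assignment of reads to this transcript. The deposited credibility interval of Parp11-204 in the alignment-based table reached up to a TPM of 0.214 in replicate 1 and 0.276 in replicate 2.

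**Figure D3:**
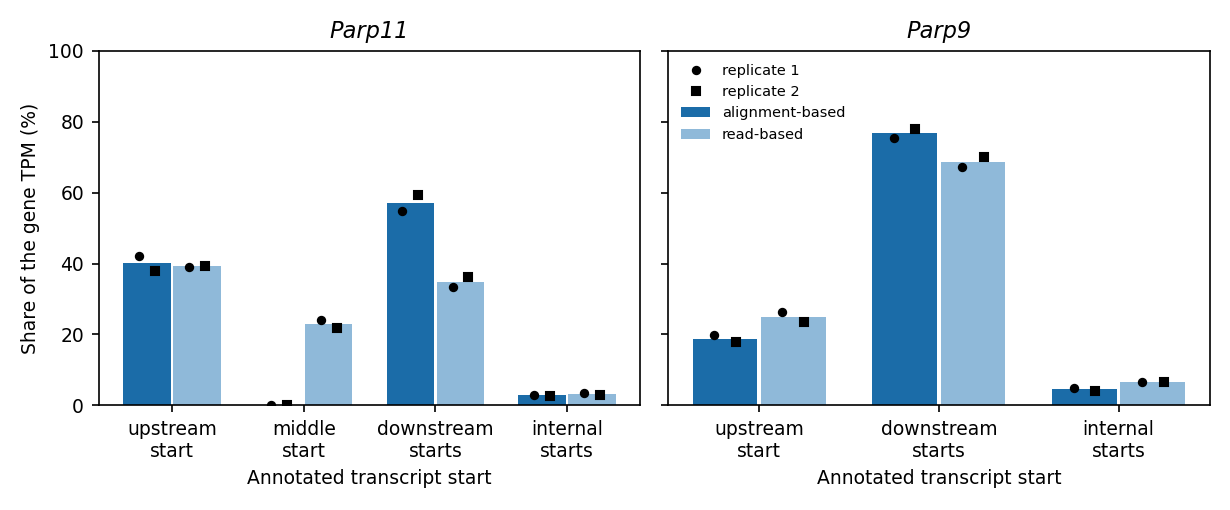
Share of gene TPM (%) by annotated transcript start for Parp11 (left) and Parp9 (right), in the alignment-based (dark bars) and read-based (light bars) table, with bars as means and points as the 2 replicates. The Parp11 upstream start stays near 40.0% in both tables while the middle start is 0% by alignment, and the Parp9 downstream starts hold most of that gene in both.

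The coding sequence of Parp11-202 equals the last 744 bases of that of Parp11-201, so the form from the upstream start lacks the first 249 coding bases, or 83 codons. These bases, from the GENCODE M21 transcript Parp11-201, are shown because they are what the annotated proteins of the 2 starts differ by, and the whole stretch is absent from the coding sequence of Parp11-202.
Parp11-201 coding bases absent from Parp11-202: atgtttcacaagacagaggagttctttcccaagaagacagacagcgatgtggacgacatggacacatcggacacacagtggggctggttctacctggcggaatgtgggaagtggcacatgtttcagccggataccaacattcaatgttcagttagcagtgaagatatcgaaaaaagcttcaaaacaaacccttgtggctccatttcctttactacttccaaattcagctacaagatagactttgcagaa
The catalytic domain that defines the PARP family lies at the C-terminal end of Parp11, after the stretch shown.

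Parp10 was led by Parp10-201, at 51.0% and 56.3% by alignment and 64.2% and 66.9% by reads. Parp10-202, whose coding sequence is also 2880 bases long, held 12.0% and 13.7% by alignment and 19.1% and 19.3% by reads. Parp10-205, annotated as a target of nonsense-mediated decay, is the Parp10 transcript that overlaps exons of Plec. It held 34.6% and 27.7% by alignment, a TPM of 6.77 and 6.37, but 12.3% and 10.1% by reads. In counts, which are not corrected for length, this transcript of 1047 bases took less of the gene. Its counts were 627 of 4959 and 480 of 5100 by alignment, and 193 of 5211 and 165 of 5480 by reads. The share of Parp10-205 was more than 2-fold higher by alignment than by reads in both libraries, so the level of Parp10 itself depends on the assignment of reads to this transcript.

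Transcripts not annotated as protein coding (decay targets, retained introns and processed transcripts) held 37.0% and 30.0% of Parp10, 20.4% and 19.8% of Parp9 and 12.2% and 13.2% of Parp11 by alignment. By reads they held 16.6% and 13.8% of Parp10, 24.2% and 23.5% of Parp9 and 14.7% and 14.7% of Parp11. These 3 of 8 genes were at 10% or more in both tables, against 27.8% and 27.9% of genes by alignment and 32.2% and 32% by reads. In the other 5 genes such transcripts held from 0% for Dtx3l to 7.96% for Parp8. The share of genes at 10% or more was near the background.

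Lists of related genes were set beside the 8 for scale, as counts detected against the same 16.7% of annotated genes and as medians of gene TPM. Of the other PARP family, 8 of 9 genes were detected, with a median TPM of 11.1 and 9.04. The antiviral protein gene Zc3hav1 led them at 59.3 and 49.6, followed by Tiparp, an aryl hydrocarbon receptor target, at 29.2 and 14.1 and the tankyrase gene Tnks2 at 17.6 and 17.9. Parp16, of the endoplasmic reticulum, was the lowest at 0.34 and 0.16. The median of the 8 genes exceeded that of the other PARP family by 1.64 ± 0.19 on the log2(TPM + 0.1) scale (SD, n = 2 libraries), while Zc3hav1 lay near Dtx3l and Parp9. The 8 genes were chosen with results known, so this difference was not tested.

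Enzymes that remove ADP-ribose were low, with 4 of 7 detected and a median TPM of 3.84 and 3.75. Adprh, which acts on ADP-ribosylated arginine, had a TPM of 10.6 and 11.9. Parg, which cleaves ADP-ribose chains, had 6.99 and 6.56, and the macrodomain enzyme gene Oard1 had 5.68 and 5.04. Adprhl1 was the lowest, with 1 count in replicate 1 and 0 in replicate 2. Of the other Deltex ligases, 3 of 4 were detected, with a median TPM of 3.96 and 2.78. Dtx2 was at 5.01 and 9.84, Dtx4 at 5.40 and 4.04 and Dtx3 at 2.91 and 1.51, while Dtx1 was at 0.01 in both libraries. Dtx3l stood above each of them in both libraries.

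Genes of NAD supply and use had 5 of 8 detected and a median TPM of 2.12 and 1.82. Nampt, the rate-limiting enzyme of NAD salvage, stood apart at a TPM of 59.2 and 51.8. The NAD-consuming enzyme gene Cd38 had 5.39 and 10.4 and Nmnat1, of NAD synthesis, had 3.15 and 2.34, with Nmnat2 at 0 in both libraries. Of 8 repair partners of Parp1, 7 were detected, with a median TPM of 8.36 and 7.14. The scaffold gene Xrcc1 had 19.1 and 19.7, the polymerase gene Polb 17.1 and 13.0 and Hpf1, which directs Parp1 to serine, 12.4 and 11.6. Aplf was the lowest of these at 0.98 and 0.71. Parp1 itself lay within the range of these 3 leading partners in both libraries.

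The 13 interferon signalling genes were all detected, with a median TPM of 32.1 and 31.0. Among them were the transcription factor genes Irf7, at 658 and 561, and Irf1, at 275 and 224, and Ifnb1, the gene of interferon beta, was the lowest at 13.3 and 5.78. The 20 interferon-stimulated genes were all detected too, with a median TPM of 151 and 138 and 12 of them reached a TPM of 100 in both libraries. Among them Ifit2, at 685 and 753, and Rsad2, at 729 and 662, restrict viruses, and Cxcl10, at 761 and 603, is a chemokine gene. Oas2, a sensor of double-stranded RNA, was the lowest at 9.79 and 11.7. All 8 genes described here stood below the median of this list in both libraries, with Parp14 the nearest to it.

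**Figure D4:**
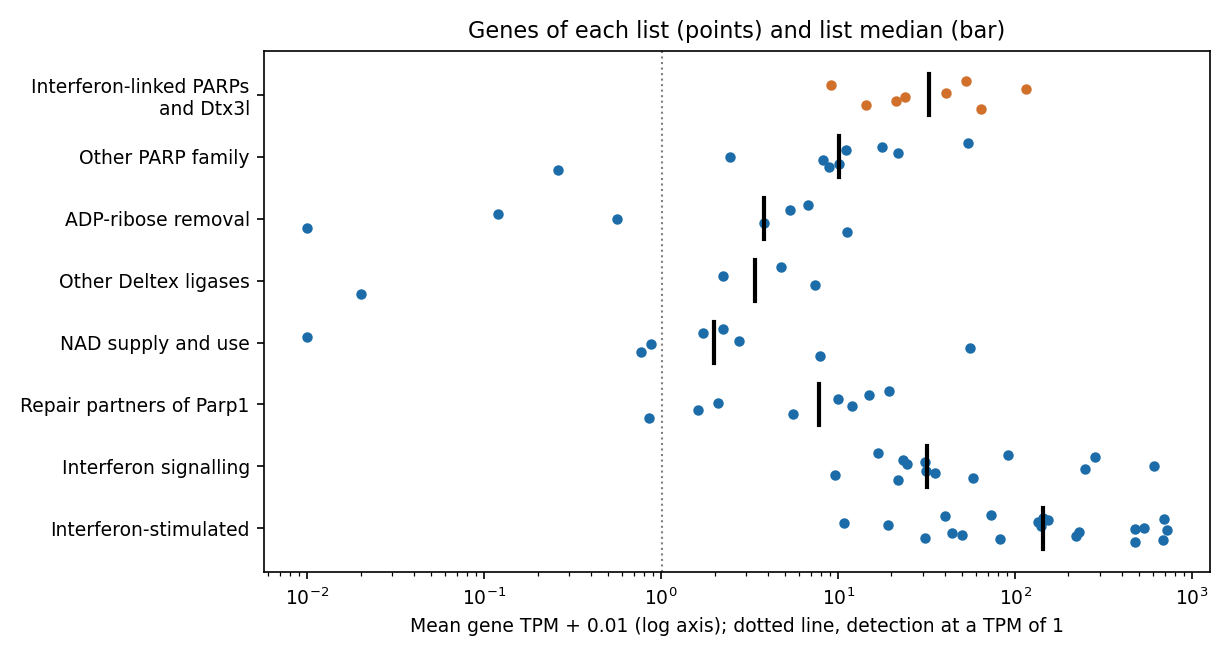
Mean gene TPM plus 0.01 over the 2 replicates (log axis) for each gene of a list (points), with the list's median as a bar and the detection level of 1 as a dotted line. The 8 genes described here (orange, top row) lie between 9.07 and 115 TPM, and their median stands above that of the other PARP family and below that of the interferon-stimulated genes, while the points of the rows overlap.

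How close the replicates lay depended on the scale. By gene TPM all 8 genes lay within 1.2-fold, against 55.9% of detected genes, and the log2 ratio of replicate 2 over replicate 1 ran from -0.20 for Parp11 to 0.23 for Parp10. Within 1.2-fold were 3 of the 8 by read-based TPM, against 16.2% of genes, 4 by TPM rescaled to protein-coding genes, against 60.6%, and 5 by FPKM, against 60.4%. By gene TPM, 5 of the 8 were higher in replicate 2, against 31.3% of detected genes, and 3 were lower. Detected genes as a whole had a median log2 ratio of -0.14, so a ratio in TPM is read relative to that shift. The median over genes was -0.55 by read-based TPM, where 0 of the 8 were higher in replicate 2, against 5.34% of genes. By rescaled TPM the median was 0.05, and 7 of the 8 were higher, against 57.2% of genes. On expected counts scaled by TMM, 6 were higher in replicate 2 and Dtx3l changed sides, with a count ratio of 1.07. The share of all genes higher on that scale was not computed. The largest count ratio was that of Parp10, at 1.36-fold, followed by Parp1 at 1.25-fold and Parp14 at 1.25-fold, and the lowest that of Parp11, at 0.947-fold. On read-based counts the largest was again that of Parp10, at 1.33-fold. With no ratio of the 8 at 2-fold, no test with a 2-fold limit could call any of them. The calls below thus follow from that limit and add nothing beyond the ratios. None of the 8 was called at an adjusted p under 0.05 and a fold of at least 2 in the two-sided exact binomial test, against 5.56% of 13298 genes. That test holds counting error only, and at counts of this size 7 of the 8 passed it on adjusted p alone, against 56% of genes. When the biological variation was assumed, at a coefficient of 0.1, edgeR's exact test called 0 of the 8 at 2-fold, against 3.9% of genes. At 0.2 it called 0 of the 8, against 1.03% of genes. The exact binomial test on read-based counts also called 0 of the 8 at 2-fold, against 7.29% of genes.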

How the data were processed

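Levels were taken from 2 libraries of 1 group. Per the deposited text beside the tables, values refer to mm10 with annotation GENCODE M21. The aligner, quantifiers and strand setting were not given in the sources used here. The authors deposited expected counts (estimated counts per gene or transcript) and TPM, per the file headers, in tables made from an alignment and in a table made from the reads. The deposited FPKM served as an alternative. The deposited percent columns hold the share that a transcript takes of gene TPM, and percentages of read-based TPM were computed here. TPM in these tables covers 81881 features, of which 26345 are not annotated genes and were left out.

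Replicates were compared on rounded expected counts, scaled by TMM in edgeR 4.0.16 (R 4.3.3), by a two-sided exact binomial test. Genes averaging 10 counts or more were tested, with Benjamini-Hochberg adjustment over all of them. With 1 sample on each side no dispersion can be estimated, so edgeR's exact test was run with assumed coefficients of variation of 0.1 and 0.2. DESeq2 1.42.0 size factors were an alternative. The test was tried on simulated counts. List medians used log2(TPM + 0.1). Tables were handled with pandas 2.3.3 in Python 3.11.15.

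The 8 genes, the lists and the tests were chosen with earlier results of these data known. Named were all 8 genes, their transcripts at 10% or more in either table, the 3 highest and the lowest gene of each list, and genes that overlap or lie near the 8; part of what this rule names is not reported here. The comparison with APPRIS tags and with protein-coding transcripts alone was added after seeing the data.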

Additional observations from a re-analysis of the deposited data

How the results depend on the processing

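All 8 genes were detected under each alternative tried: the read-based table, TPM rescaled to protein-coding genes, a TPM minimum of 5, 10 expected counts in each library as the limit, and each replicate alone. Of the 55536 annotated genes, 7965 were detected by the read-based table, 11174 by rescaled TPM, 5569 at a TPM of 5 and 12815 at 10 counts. Replicate 1 alone detected 9643 and replicate 2 alone 9507. The order of the 8 by mean level kept all 8 places by read-based TPM, rescaled TPM, FPKM and without the transcript Parp10-205. In that last setting the place of Parp10 was kept narrowly, at a mean of 14.7 against 14.4 for Parp1. This gap is smaller than the SD of gene TPM of either gene, 2.45 for Parp10 and 1.30 for Parp1. The order kept 6 of 8 places with protein-coding transcripts alone, where the means of Parp10 and Parp1 changed places, as did their values in replicate 1 only. The levels themselves moved with the scale: Parp14 averaged 115 by gene TPM, 412 by rescaled TPM, 208 by FPKM and 56.6 by read-based TPM, and Parp8 averaged 9.07, 32.3, 16.3 and 4.74 on the same scales. Within 1.2-fold between replicates were 8 genes by gene TPM, 3 by read-based TPM, 4 by rescaled TPM and 5 by FPKM, alternatives chosen after seeing the data. Over the settings that leave out a replicate it kept between 6 and 8 places, the lower value without replicate 1, where Parp11 and Parp10 changed places. The difference between the median of the 8 and that of the other PARP family, 1.64 on the log2 scale, ranged from 1.56 to 1.77 over the table, the scaling and the pseudocount, and from 1.50 to 1.78 with a replicate left out. With no fold required, the count of genes that differed between replicates was 7 in place of 0, because the fold requirement itself was dropped. The count of leading transcripts shared by both tables stayed at 7, that of protein-coding leads at 8, and that of principal leads was 6 by reads against 7. With 1 group and 2 libraries, SDs rest on 2 values, no condition was compared, and counts do not limit the levels of these genes. No paired analysis was possible because the series holds 1 group.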
